A study of Mus musculus with 6 samples.

Results

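The 9 mature miRNAs of a hairpin cluster inside an intron of the Clcn5 gene were examined in the RNA-induced silencing complex (RISC) of young and old mouse brain. They come from the hairpins of miR-532, miR-188, miR-362, miR-501 and miR-500, and were taken as the labels mmu-miR-532-5p, mmu-miR-532-3p, mmu-miR-188-5p, mmu-miR-188-3p, mmu-miR-362-5p, mmu-miR-362-3p, mmu-miR-501-5p, mmu-miR-501-3p and mmu-miR-500-3p, written below without the species prefix. All reads that the deposited table gave to a label were added up. These 9 members were found among 1101 miRNA labels, and 448 of the 143934 read sequences belonged to them. None of the 448 carried a second miRNA label.

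RISC-bound small RNAs (R-sRNAs) were obtained by Ago-RP-Seq, in which Ago1-4 are captured with the T6B peptide of GW182 and the RNA held by them is sequenced. The tissue was cortex and hippocampus combined from BL6 mice, which the study describes as male C57BL/6J animals. There were 3 libraries from mice of 2 months (2M) and 3 from mice of 18 months (18M), without any transgene or treatment, so that age was the only labelled difference. Brain tissue is a mixture of cell types, and fewer cells of a type cannot be told apart from fewer RISC-bound molecules per cell.

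Libraries held 19272046 to 25080484 reads. A floor of 3 reads corresponded to 0.120 to 0.156 RPM, the reads of a miRNA after scaling all libraries to the same total, and the members had 639 to 12708 reads per library. The brain miRNAs miR-124-3p, miR-128-3p and miR-9-5p ranked 1, 2 and 4 among all labels, with miR-124-3p at 92539 to 134320 RPM. On median-of-ratios scaling, which sets the middle miRNA of the libraries equal, 18M replicate 2 had the lowest relative size factor, 0.905, against 0.991 to 1.05 in the other libraries.

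A miRNA hairpin is cut by Drosha and Dicer into a short duplex, from which Argonaute keeps 1 strand, either the 5p or the 3p arm. Bases 2 to 8 of the kept strand, the seed, pair with target mRNAs, so that a shift of the 5' end changes the set of targets, while a change at the 3' end leaves the seed as it was. Several hairpins that lie in an intron can be released from the same host transcript. Clcn5 encodes ClC-5, an exchanger of chloride and protons in endosomes that is best known from the kidney tubule.

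All 5 hairpins lay on the minus strand of chromosome X in GRCm38, within 10815 bp. In the direction of transcription they were Mir532 (chrX:7248402-7248497), Mir188 (chrX:7247989-7248056), Mir362 (chrX:7241982-7242046), Mir501 (chrX:7241243-7241351) and Mir500 (chrX:7237683-7237774). The gaps between neighbours were 345, 5942, 630 and 3468 bp. Clcn5 spans chrX:7153810-7319358, and the hairpins fell within an intron, outside all exons, in 3 of its 5 annotated transcripts. The smallest intron around them was chrX:7213011-7316658, 103648 bp long.

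The mature sequences are shown because the members fall into seed groups that cross the hairpins. For 8 of the 9 members the sequence is that of RefSeq (GRCm38.p6), and for miR-532-5p, it is the most frequent read in the data, written with T. Capitals mark the seed, bases 2 to 8.
miR-500-3p: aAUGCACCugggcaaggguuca
miR-501-3p: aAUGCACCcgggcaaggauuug
miR-362-5p: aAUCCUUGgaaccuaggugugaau
miR-501-5p: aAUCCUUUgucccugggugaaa
miR-362-3p: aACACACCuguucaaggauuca
miR-188-3p: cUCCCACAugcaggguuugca
miR-532-3p: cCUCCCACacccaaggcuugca
miR-188-5p: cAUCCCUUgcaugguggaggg
miR-532-5p: cATGCCTTgagtgtaggaccgt

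The 9 members carried 8 different seeds. miR-500-3p and miR-501-3p, from neighbouring hairpins, shared AUGCACC and were identical at 18 of 22 positions. Counted from the 5' end, they differed by U9C, G18A, C21U and A22G, with the base of miR-500-3p first. miR-362-5p and miR-501-5p shared bases 2 to 7, AUCCUU, and differed at the last base of the seed. The seed of miR-532-3p, CUCCCAC, and that of miR-188-3p, UCCCACA, hold the same letters shifted by a single base.

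The first question was how much of each member was held in the RISC. Together they made up 0.156% of all reads, and their levels spanned a wide range. miR-500-3p was the most abundant, with a mean of 400.4 RPM over the 6 libraries and rank 166 among the labels. miR-532-5p followed with 383 RPM (rank 171) and miR-362-3p with 256 RPM (rank 209). These 3 members held 66.5% of the cluster's reads. miR-532-3p had 143 RPM, miR-188-5p 125 RPM and miR-362-5p 110.1 RPM. The lowest were miR-501-3p with 71.0 RPM, miR-501-5p with 39.4 RPM and miR-188-3p with 33.7 RPM.

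The order was firm at only some steps. miR-362-3p was above miR-532-3p, miR-362-5p above miR-501-3p and miR-501-3p above miR-501-5p in 6 of 6 libraries. At each of the other 5 steps the order was turned in 1 library. The top pair, miR-500-3p and miR-532-5p, differed by 0.05 ± 0.31 on the log2 scale (SD of the log2 ratio, n = 6). The levels are read counts of RNAs of about the same length, with no length correction.

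**Figure D1:**
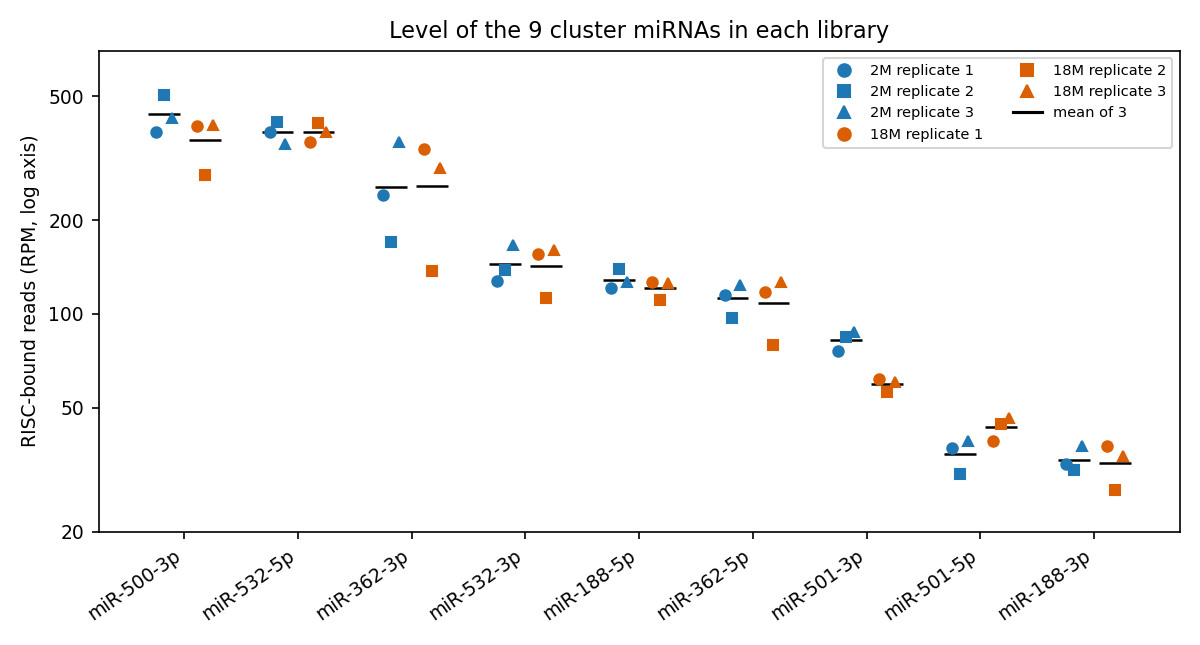
RPM (log axis) of the 9 cluster miRNAs in each of the 6 libraries, 2M in blue and 18M in orange, with a marker shape for each replicate number and a line at the mean of 3. Only miR-501-3p, at 75.8 to 87.4 RPM at 2M and 56.2 to 61.8 RPM at 18M, and miR-501-5p have groups that do not overlap. On RPM, 18M replicate 2 (orange square), which had the lowest size factor, is the lowest library for 7 members.

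The second question was which members differed between the ages. None of the 9 passed an adjusted p of 0.05 (limma on log2(RPM + 1), Benjamini-Hochberg adjustment over 474 labels with a mean of at least 10 RPM). Over all 474 labels, 4.85% passed. At an unadjusted p under 0.05 there was 1 member, miR-501-3p, against 17.9% of all labels. The groups did not overlap for 2 members, miR-501-3p and miR-501-5p, against 24.9% of all labels, so that the members' shares were no higher than the background.

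miR-501-3p had 75.8, 84.3 and 87.4 RPM in 2M replicates 1, 2 and 3 and 61.8, 56.2 and 60.3 RPM in 18M replicates 1, 2 and 3. Every old library was below every young one. The young mean was 82.5 ± 5.99 RPM and the old mean 59.4 ± 2.86 RPM (SD, n = 3 each). The log2 fold change was -0.47 (SE 0.11), with an unadjusted p of 0.00362 and an adjusted p of 0.0643 (limma), which misses the threshold. Its other arm, miR-501-5p, had 37.1, 30.7 and 39.1 RPM at 2M and 39.2, 44.2 and 46.2 RPM at 18M. All old libraries were above the young ones here, although 18M replicate 1 exceeded 2M replicate 3 by less than 1 RPM. The log2 fold change of miR-501-5p was 0.28 (SE 0.13; limma, unadjusted p = 0.0820, adjusted p = 0.353), and 0.18 without 2M replicate 2. With median-of-ratios scaling it was 0.37 (limma, unadjusted p = 0.0326, adjusted p = 0.227), which made 2 members at an unadjusted p under 0.05, against 18.6% of all labels under that scaling. The count was also 2 with edgeR (17.9% of labels) and DESeq2 (20.3% of labels).

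miR-500-3p, which shares the seed of miR-501-3p, had 385, 507 and 427 RPM at 2M and 402, 278 and 403 RPM at 18M. The groups overlapped, and 18M replicate 2 lay far below the other old libraries. Its log2 fold change was -0.29 (SE 0.19; limma, adjusted p = 0.449), and -0.12 without 18M replicate 2.

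On RPM, miR-532-5p was the steadiest member by its coefficient of variation, which was not computed with median-of-ratios scaling. It had 383, 414 and 351 RPM at 2M and 357, 409 and 383 RPM at 18M, and its coefficient of variation over the 6 libraries was 6.71%, against a median of 16.7% over all labels tested. The young mean was 383 ± 31.3 RPM and the old mean 383 ± 25.9 RPM (SD, n = 3 each), a log2 fold change of 0.00 (SE 0.12; limma, adjusted p = 0.998). miR-188-5p was nearly as even, with a coefficient of variation of 7.38% and values of 121, 139 and 126 RPM at 2M and 126, 111 and 126 RPM at 18M. Its log2 fold change was -0.09 (SE 0.11; limma, adjusted p = 0.710), and -0.03 without 2M replicate 2 or without 18M replicate 2.

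miR-362-3p was the most variable member, with a coefficient of variation of 34.9%. It had 241, 169.8 and 356 RPM at 2M and 339, 138 and 294 RPM at 18M. Replicate 2 was the lowest library in each age, and the log2 fold change of -0.03 (SE 0.41; limma, adjusted p = 0.970) became 0.37 when 18M replicate 2 was left out. miR-362-5p, from the same hairpin, had 115, 97.3 and 124 RPM at 2M and 118, 79.3 and 127 RPM at 18M, again lowest in replicate 2 of each age (log2 fold change -0.08, SE 0.20; limma, adjusted p = 0.867).

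The 3p arms of miR-532 and miR-188 resembled each other across libraries. miR-532-3p had 128, 138 and 167 RPM at 2M and 155, 112 and 160.4 RPM at 18M, and miR-188-3p had 32.9, 31.6 and 37.6 RPM at 2M and 37.7, 27.3 and 35.0 RPM at 18M. On RPM, both were highest or next to highest in 2M replicate 3. Both were lowest in 18M replicate 2, the library with the lowest size factor (0.905). The log2 fold changes were -0.02 (SE 0.18; limma, adjusted p = 0.944) for miR-532-3p and -0.04 (SE 0.15; limma, adjusted p = 0.914) for miR-188-3p.

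Signs of changes this small depended on the scaling. The median log2 fold change was -0.07 over all labels tested and -0.04 over the members, 7 of which were below 0. With median-of-ratios scaling the median of all labels was 0.02, and 2 members, miR-501-3p and miR-500-3p, remained below 0.

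**Figure D2:**
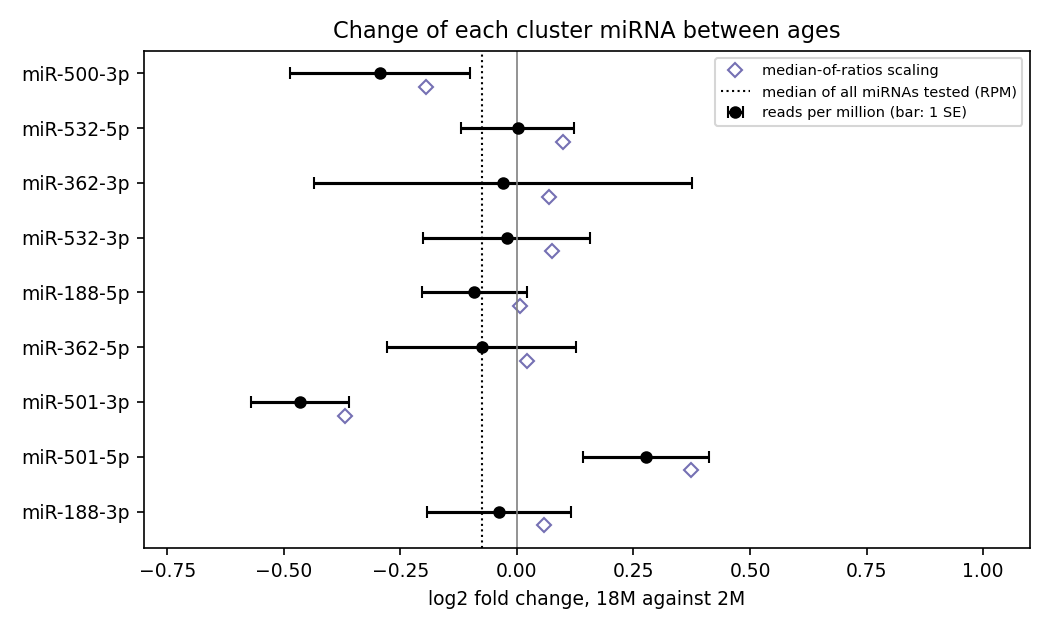
Log2 fold change (18M against 2M) of the 9 cluster miRNAs on RPM (black points, bars of 1 SE) and with median-of-ratios scaling (open diamonds), with the median of all 474 miRNAs tested as a dotted line at -0.07. miR-501-3p lies furthest below 0 and miR-501-5p furthest above it, and the other bars, except that of miR-500-3p, reach across 0.

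The summed cluster gave 1519, 1611 and 1716 RPM at 2M and 1636, 1255 and 1634 RPM at 18M. The ages overlapped, with means of 1616 ± 98.6 RPM in the young and 1509 ± 219 RPM in the old mice (SD, n = 3 each). The log2 ratio of the means was -0.10, and 0.02 without 18M replicate 2. That library also had the lowest size factor, and with median-of-ratios scaling, which applies these factors, the log2 ratio was -0.00906. miR-532-5p went the other way there: it supplied 32.6% of the cluster's reads in 18M replicate 2, against 20.5% to 25.7% in the other libraries.

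The third question was whether the use of the arms differed between the ages. The hairpins differed widely in their dominant arm. The 3p arm was dominant in miR-500, miR-501 and miR-362, and the 5p arm in miR-188 and miR-532, in 6 of 6 libraries each. miR-500-5p, which is not a member, had 5.48 to 12.5 RPM and fell below the filter of 10 RPM, and the ratio of miR-500-3p to it was 32.3 to 77.9. The ratio of 3p to 5p reads was 1.74 to 2.88 for miR-362, 0.227 to 0.299 for miR-188 and 0.275 to 0.475 for miR-532.

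In miR-501 the ratio of 3p to 5p reads was 2.05, 2.75 and 2.23 at 2M and 1.58, 1.27 and 1.303 at 18M. All old libraries were closer to an even use of the arms than any young one. The log2 ratio was 1.22 ± 0.22 at 2M and 0.46 ± 0.17 at 18M (SD, n = 3 each), a difference of -0.76. An exact two-sided permutation test gave p = 0.1, the smallest that 3 against 3 can give. Adjusted over the hairpins with both arms among the members (Benjamini-Hochberg), this exact test gave p = 0.4. Since a ratio within a library does not depend on its scaling, the size factors do not bear on it. The difference was between -0.85 and -0.63 when any single library was left out.

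Among 148 hairpin names with both arms at 10 RPM or more, 10.1% had arm ratios that did not overlap between the ages, and 6.76% had an unadjusted p under 0.05. A limma fit over these 148 arm ratios, chosen after the data had been seen, gave miR-501 an unadjusted p of 0.00526, the lowest of all, and an adjusted p of 0.558, so that no hairpin passed. The other hairpins of the cluster differed by 0.05 (miR-362), 0.05 (miR-188) and -0.02 (miR-532) on the log2 scale, with overlapping groups and exact permutation p-values of 0.9, 0.6 and 1. miR-500 had a difference of -0.57 with overlapping groups (exact permutation test, p = 0.3), measured against its sparse 5p arm.

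**Figure D3:**
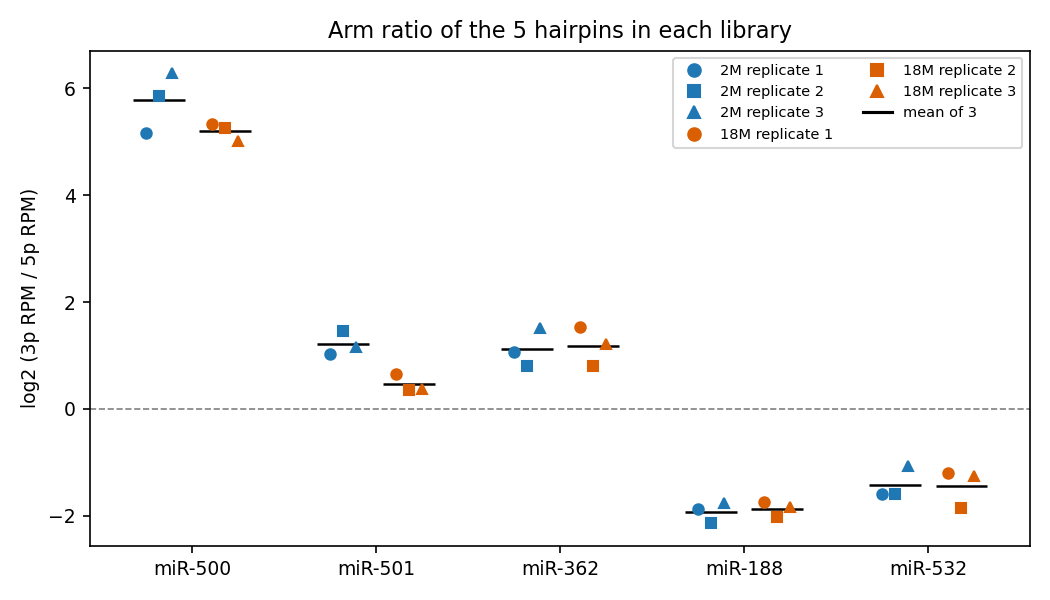
Log2 ratio of 3p to 5p RPM for the 5 hairpins in each library, 2M in blue and 18M in orange, with a line at the mean of 3 and a dashed line at equal arms. The groups of miR-501 are separate (means 1.22 and 0.46), those of the other hairpins overlap, and miR-188 and miR-532 lie below 0.

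The separate read sequences showed where within a miRNA the libraries differed. Of the member sequences, 29 reached a mean of 10 RPM, and none passed an adjusted p of 0.05 (limma), against 0.366% of 3281 sequences in the table. At an unadjusted p under 0.05 there were 3 member sequences (13% of all), and for 4 the groups did not overlap (21% of all). These were the main 22 and 23 nt reads of miR-501-3p, the 20 nt read of miR-362-3p and a 23 nt read of miR-188-5p, which had 13.0, 14.99 and 14.3 RPM at 2M and 10.4, 11.5 and 12.4 RPM at 18M (limma, adjusted p = 0.459). The 22 nt read of miR-501-3p had 21.7, 28.2 and 25.9 RPM at 2M and 20.9, 12.4 and 19.2 RPM at 18M. Its 23 nt read had 20.7, 24.5 and 25.2 RPM at 2M and 15.3, 16.6 and 16.6 RPM at 18M (log2 fold change -0.51, SE 0.14; limma, adjusted p = 0.234). With DESeq2 on the recovered reads this 23 nt read had an adjusted p of 0.0470, the only member sequence called under any setting. DESeq2 called 151 of 3281 sequences, or 4.6%, so that 1 of 29 was no more than the background.

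miR-362-3p was split by its 3' end. Its 20, 21 and 22 nt reads are shown because they begin alike, with the seed in capitals, and differ only in the last bases.
miR-362-3p, 20 nt: aACACACCtgttcaaggatt
miR-362-3p, 21 nt: aACACACCtgttcaaggattc
miR-362-3p, 22 nt: aACACACCtgttcaaggattca
The 22 nt read had 115, 66.7 and 166 RPM at 2M and 154, 46.5 and 127 RPM at 18M. The 21 nt read also spread widely, with 57.2, 47.6 and 87.6 RPM at 2M and 85.3, 25.2 and 79.0 RPM at 18M. The 20 nt read had 32.3, 27.7 and 29.5 RPM at 2M and 40.04, 39.4 and 38.2 RPM at 18M. All old libraries were above all young ones for the short read, including 18M replicate 2, in which the 21 and 22 nt reads were at their lowest. Its log2 fold change was 0.38 (SE 0.13; limma, unadjusted p = 0.0228, adjusted p = 0.296).

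The 20 nt length class made up 13.8%, 16.6% and 8.62% of miR-362-3p at 2M and 12.4%, 29.0% and 13.4% at 18M, so that the share, unlike the level, overlapped between the ages. In 18M replicate 2 the 21 nt class of miR-501-3p was at its highest share, 23.7% against 12.6% to 17.3% elsewhere. The members did not share this, as the 21 nt class of miR-532-5p was at its lowest share there, 3.58%. The 20 nt read of miR-362-3p ends in U. Over all reads of a library, the share ending in U was 46.8% to 47.8% at 2M and 49.3% to 50.9% at 18M without overlap, and its part in the level of the 20 nt read was not tested.

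**Figure D4:**
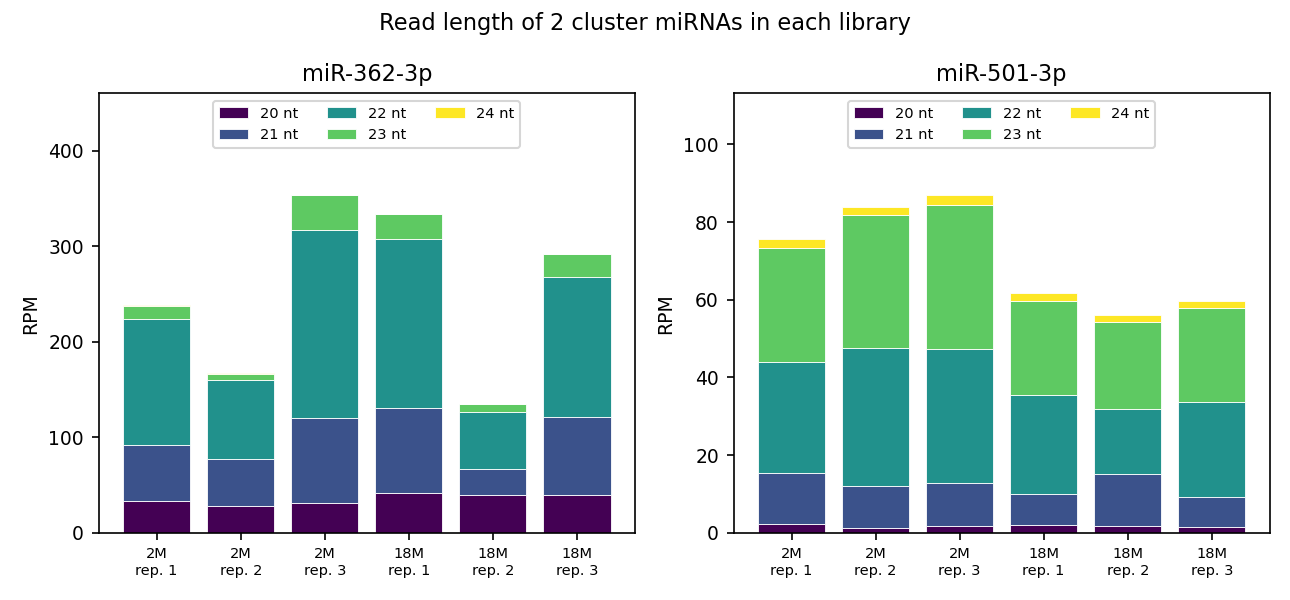
RPM of the 20 to 24 nt reads of miR-362-3p (left) and miR-501-3p (right) in each library, stacked by read length on axes that start at 0. The 20 nt layer of miR-362-3p runs only from 28.3 to 42.0 RPM and is higher in every old library than in any young one. Its 22 nt layer runs from 60.1 to 196 RPM, and the old libraries of miR-501-3p are shorter than the young ones.

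The 5' ends, which set the seed, were precise. The main 5' end held 92.4% to 100% of the reads of each member in each library, and the groups overlapped for all 9, while 14.1% of 474 labels had groups that did not overlap. Exact permutation p-values of the 9 members, unadjusted, were 0.2 to 0.9. The least precise member was miR-188-3p, of which 5.10% of reads began so that bases 2 to 7 were CUCCCA, the 6mer seed of miR-532-3p. In turn, 1.47% of miR-532-3p reads carried UCCCAC, the 6mer seed of miR-188-3p. The main read began at the RefSeq 5' end in all 8 members with an entry, and was identical to it in 4 of them (miR-500-3p, miR-501-3p, miR-362-3p and miR-188-3p).

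The 3' ends were more varied. Reads that matched the hairpin except for 1 to 4 added bases at the 3' end were counted as tailed, and an added base that happens to match the hairpin cannot be seen. The tailed share was highest in miR-188-5p, at 35.8% to 40.6% of reads in each library, of which single-base-type tails of A made up 16.2% and of U 14.1% of its reads. miR-501-3p followed with 20.2% to 25.1%, of which U tails were 16.4%, and miR-500-3p with 12.3% to 18.0%, of which U tails were 11.1%. At the other end, miR-362-5p was tailed in 2.85% to 4.34% of reads. The median over 376 labels with a RefSeq mature entry, which leaves out miR-532-5p, was 11.7%, and 4 members were above it.

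Tailed shares did not overlap between the ages for 2 of the 9 members, against 19.4% of the 376 labels. miR-188-3p was tailed in 17.2%, 16.8% and 17.4% of reads at 2M and 9.77%, 14.4% and 12.6% at 18M, and all old libraries were lower. miR-532-3p was tailed in 9.96%, 7.08% and 9.54% at 2M and 10.3%, 11.4% and 11.2% at 18M, and all old libraries were higher. Each had an exact permutation p of 0.1, the smallest possible, without adjustment over the 9 members.

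**Figure D5:**
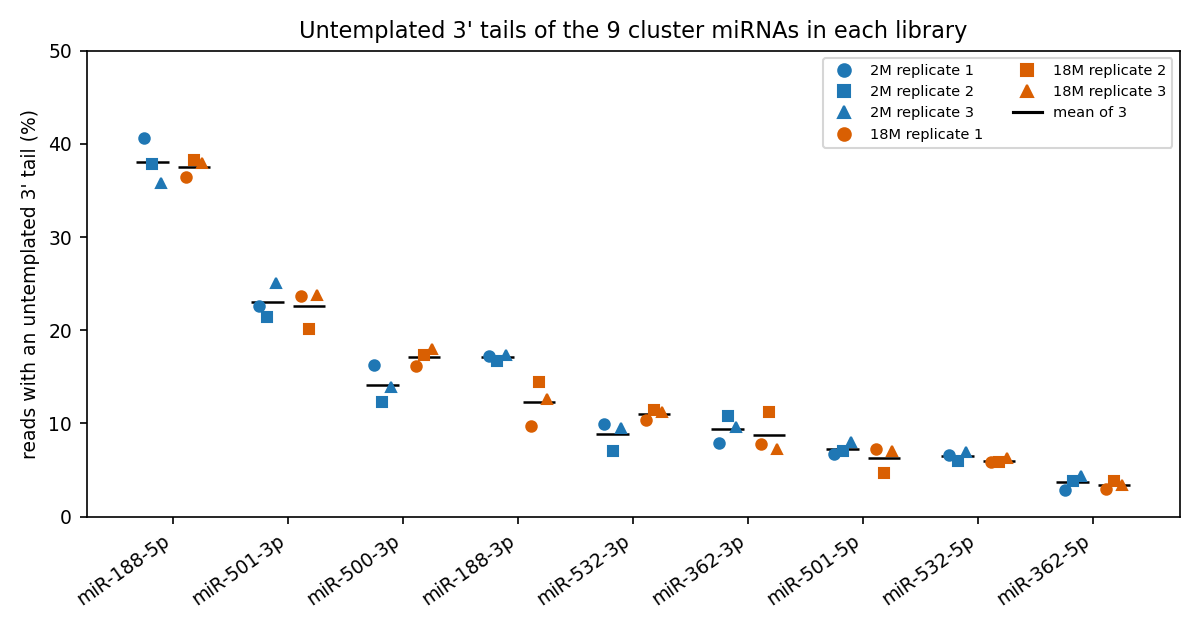
Percent of reads with an untemplated 3' tail for the 9 cluster miRNAs in each library, 2M in blue and 18M in orange, with a line at the mean of 3. miR-188-5p lies highest at 35.8% to 40.6%, and the groups are separate for miR-188-3p (lower at 18M) and miR-532-3p (higher at 18M).

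The study scores each 6mer seed, bases 2 to 7, by the percent viability of cells given an siRNA with that seed, as a mean over 3 mouse cell lines, and a low value marks a toxic seed. The deposited values reach 108.5%, above 100% for 5 of 4032 seeds, so they cannot be a plain share of surviving cells. The 9 members carried 7 different 6mer seeds. The lowest viabilities were 32.6% for AUCCCU of miR-188-5p and 36.1% for AUGCCU of miR-532-5p, the only members under 40%. The highest was 81.0% for AUCCUU, the seed of miR-362-5p and miR-501-5p. Between these were ACACAC of miR-362-3p (54.2%), AUGCAC of miR-500-3p and miR-501-3p (57.3%), UCCCAC of miR-188-3p (65.9%) and CUCCCA of miR-532-3p (69.3%).

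Reads with a seed viability under 40% made up 27.8% to 41.3% of the cluster's reads and 12.3% to 13.7% of all reads, so the cluster held the larger share in 6 of 6 libraries. The cluster's share was 31.7% ± 3.43 at 2M and 33.9% ± 6.39 at 18M (SD, n = 3 each) with overlapping groups, and its highest value was in 18M replicate 2. The mean viability of the cluster's reads was 53.2% ± 0.82 at 2M and 52.9% ± 1.31 at 18M (SD, n = 3 each), again with overlap. Over all reads it was 58.0% ± 0.11 in young and 57.7% ± 0.25 in old mice (SD, n = 3 each), and the groups did not overlap.

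Some of these seeds were held in the RISC almost entirely by the cluster. Its members supplied 97.1% of all reads with the seed AUGCCU, 93.8% with AUGCAC, 90.9% with AUCCUU and 78.5% with AUCCCU. The share was 31.9% for ACACAC, where miR-329-3p supplied more reads, 16.4% for UCCCAC, and 5.14% for CUCCCA, where miR-150-5p supplied 2576 RPM. miR-329-3p was the only other label of at least 10 RPM with the same bases 2 to 8 as a member, and it had 576 ± 91.7 RPM in young and 519 ± 95.3 RPM in old mice (SD, n = 3 each; log2 fold change -0.15, SE 0.19; limma, adjusted p = 0.710).

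The members varied in how closely they followed the summed cluster, which contains them. Likeness was measured as the root mean square difference of centred log2(RPM + 1) values over the 6 libraries, as a description. The closest pair was miR-188-3p and miR-532-3p, at 0.08, and each of them was close to the summed cluster (0.07 and 0.09). By closeness to that sum, miR-188-3p ranked 1, miR-532-3p 5, miR-188-5p 9, miR-362-5p 39 and miR-500-3p 69 among the 474 labels, and miR-501-3p 155, miR-532-5p 182 and miR-501-5p 279. The arms of miR-501 were 0.40 apart, and miR-362-3p was also 0.40 from the summed cluster, where it ranked 391 of 474 labels by closeness. Outside the cluster, the labels nearest to its sum were miR-24-3p (0.07), miR-326-3p (0.08), miR-15a-5p (0.09), miR-1843a-5p (0.09) and miR-3085-3p (0.09).

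A list of 22 labels from other miRNA genes of the X chromosome was set beside the cluster. Of these, 19 were in the table and 17 reached 10 RPM. None of the 17 passed an adjusted p of 0.05 (limma), against 4.85% of all 474 labels. An unadjusted p under 0.05 was found for 1, against 17.9% of all labels, and 2 had groups that did not overlap, against 24.9%. The lowest p belonged to miR-421-3p (log2 fold change -0.29; limma, adjusted p = 0.215). The median log2 fold change was -0.14 over the list, within a range from -0.40 to 0.46, against a median of -0.07 over all labels tested.

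The second annotation column of the table gave another class to 1 hairpin. Of the reads labelled miR-532-3p, 99.4% were called piRNA in that column, and of those labelled miR-532-5p, 94.0%. All reads of the other 7 members were called miRNA there. Reads that this column assigned to a hairpin of the cluster but that had no miRNA label were few, at a mean of 5.29 RPM for miR-362, 5.20 RPM for miR-500 and under 1 RPM for the others.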

How the data were processed

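Small RNAs bound to Ago1-4 in 6 mouse brain samples (3 of 2 months and 3 of 18 months, grouped by their titles) were sequenced on an Illumina instrument. With the SPOROS pipeline the authors demultiplexed and trimmed the reads (Trim Galore is named, version not given in the sources used here), collapsed them into a table of read sequences, dropped rare and artificial ones, matched them to lists of mouse small RNAs by BLAST and scaled each library, so the deposited values are RPM. The deposited table also gives a seed viability score, a mean percent viability that exceeds 100 for some seeds; what it is relative to is not given in the sources used here. Ligation of adapters favours some sequences, so that levels of different miRNAs carry this bias. Whole reads were recovered, because 100% of values were multiples of the worth of 1 read, to within 0.05 of it. Without molecular identifiers, floors describe counting error only. None of the per-sample columns lay outside the 6 samples.

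The read values of each miRNA label were added, and a row with several labels counted in full toward each of them. The 474 labels whose mean reached 10 RPM entered a limma 3.58.1 fit (R 4.3.3; log2(RPM + 1), trended eBayes), in which an adjusted p (Benjamini-Hochberg) under 0.05 made a call. Fold changes refer to log2(RPM + 1), so that those of low miRNAs are understated. The fit was tested on simulated data with changes far larger than those of the members, so that its power for small changes is not known from it. Arm ratios and shares were compared by exact two-sided permutation tests (smallest p 0.1). The chi-square comparison of read counts found no duplicated libraries.

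All 9 members were named, with the 5 labels nearest to their sum, labels that share a seed, the listed X chromosome miRNAs as counts, miR-500-5p and 3 brain miRNAs. Members and lists were chosen with earlier results of these data known. Each result was recomputed with other pseudocounts (0.1, 5), other filters (1 RPM, 100 RPM, none), limma with an untrended prior, a block for the replicate number, median-of-ratios factors, DESeq2 1.42.0 and edgeR 4.0.16 (TMM, quasi-likelihood) on recovered reads, reads with a single label, reads of 20 to 24 nt, and without each library in turn, as far as each applied. The fit over all arm ratios was added after seeing the data. Hairpins and mature sequences were those of RefSeq (GRCm38.p6) and introns those of GENCODE (GRCm38). Python 3.11.15, pandas 2.3.3 and scipy 1.17.1 were also used.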

Additional observations from a re-analysis of the deposited data

How the results depend on the processing

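No cluster miRNA was called under any of the alternatives, and miR-501-3p stayed negative throughout (adjusted p 0.0535 with DESeq2 to 0.245 with the replicate number as a block). Same-numbered libraries deviated from their age means with correlations of -0.17, -0.22 and -0.10, and differently numbered ones with -0.10 to 0.18. With 3 libraries per age, such weak correlations cannot tell whether the numbers pair the samples, and the labels do not say so. With the replicate block 1 of 474 labels was called, against 23 without it, and 0 of the 9 members. The count of called member sequences was 0 except with DESeq2, where it was 1 of 29, with 151 of 3281 sequences called in all against 12 in limma. In limma, leaving out any single library kept the member count at 0 and lowered the count over all sequences from 12 to 0. Under median-of-ratios scaling, edgeR and DESeq2, miR-501-5p stood at 0.37, 0.38 and 0.38 on the log2 scale, with an unadjusted p of 0.0326, 0.0356 and 0.0296, so that 2 members were under 0.05, against 18.6%, 17.9% and 20.3% of all labels. With these settings the log2 fold changes turned positive for miR-362-3p (0.0693, 0.0857 and 0.0868), miR-362-5p (0.0220, 0.0332 and 0.0311), miR-188-3p (0.0581, 0.0625 and 0.0606), miR-532-3p (0.0758, 0.0772 and 0.0734) and miR-188-5p (0.00697, 0.00487 and 0.000955), and none of these was called. Leaving out each library gave log2 fold changes of -0.29 to 0.37 for miR-362-3p, -0.21 to 0.13 for miR-362-5p, -0.13 to 0.10 for miR-188-3p, -0.14 to -0.03 for miR-188-5p, 0.18 to 0.35 for miR-501-5p, -0.38 to -0.12 for miR-500-3p, -0.11 to 0.14 for miR-532-3p and -0.0586 to 0.0594 for miR-532-5p. It gave arm differences of -0.13 to 0.24 for miR-362, -0.0549 to 0.14 for miR-188 and -0.14 to 0.19 for miR-532, and a main 5' end difference of -0.28 to 0.15 percentage points for miR-501-3p. The cause was not tested. With 3 libraries per age, the exact test cannot go below 0.1, and leaving out a library lowered the number of labels called to between 0 and 15.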
